A study of Mus musculus with 35 samples.

Results

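A set of 10 genes that govern how pyruvate is used in interscapular brown adipose tissue (iBAT) were followed through a cold exposure time course. They are the pyruvate dehydrogenase kinases Pdk1, Pdk2, Pdk3 and Pdk4, the pyruvate dehydrogenase phosphatases Pdp1 and Pdp2, the mitochondrial pyruvate carrier subunits Mpc1 and Mpc2, pyruvate carboxylase (Pcx) and the cytosolic phosphoenolpyruvate carboxykinase Pck1. They were picked by symbol from the 55421 genes of the count table, and all of them were found there. The series holds 35 libraries of iBAT RNA, 1 from each of 35 male C57BL/6J mice aged 9 to 10 weeks. In total, 5 mice stayed at colony room temperature (24 °C), and 5 mice each were collected after 6 hours or after 1, 2, 3, 4 or 5 days at 6 °C. Mice in the cold were kept alone in cages without nesting material, so temperature and housing changed at the same time and their effects cannot be told apart. The kit reads the 3′ end of polyadenylated RNA, so a count stands for a transcript end and does not grow with transcript length. Values are CPM, counts scaled to a common library size, with TMM factors (the edgeR normalization for library composition).

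The pyruvate dehydrogenase complex turns mitochondrial pyruvate into acetyl-CoA and so links glycolysis to the citric acid cycle and, through citrate, to fat synthesis. PDK enzymes phosphorylate the complex and switch it off, and PDP enzymes remove the phosphate and switch it on. Pyruvate reaches the complex through a carrier made of MPC1 and MPC2. In mitochondria pyruvate can also be carboxylated to oxaloacetate by pyruvate carboxylase, and PEPCK turns oxaloacetate into phosphoenolpyruvate. In adipose tissue, which releases little glucose, that route makes the glycerol backbone of triglycerides and is called glyceroneogenesis. Brown fat burns fatty acids and glucose during thermogenesis and also rebuilds its lipid stores.

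The libraries held 3846016 to 6047247 counts, and a single read is worth 0.260 CPM in the smallest and 0.165 CPM in the largest. Genes of the mitochondrial genome took 33.6% to 46.2% of the counts. All 8 brown adipocyte markers examined, Ucp1, Cidea, Adipoq, Plin1, Fabp4, Pparg, Cox8b and Prdm16, were detected in every group, and their summed level ranged from 13290 to 24037 CPM over the mice. Against controls, 1 was called higher and 1 lower after 6 hours, 1 and 3 after 1 day, and 2 and 2 after 5 days. The 8 skeletal muscle markers examined (such as Acta1 and Ckm) were also detected in every group, with a summed level of 2.31 to 1067 CPM in single mice. The 5 endothelial markers examined summed to 264 ± 23.2 CPM (SD, n = 5) in controls, 453 ± 39.4 CPM after 6 hours, when 2 were called higher and 1 lower, and 526 ± 37.2 CPM after 1 day, when 4 were called higher. The 7 macrophage and dendritic cell markers summed to 87.1 ± 35.3 CPM in controls and 154 ± 62.4 CPM after 3 days, when 2 of 6 tested were called higher. After 5 days they summed to 117 ± 30.7 CPM, with 2 called higher and 1 lower. The 6 stromal markers examined summed to 614 ± 117 CPM in controls and 402 ± 40.1 CPM after 1 day. At that time 4 of 5 tested were called lower (17.8% of all genes), and Pdk1, Pcx and Pck1 were too. Each of these members was also called lower at another duration, when 0 or 1 stromal marker was. In tissue RNA, fewer cells of a type and less RNA per cell cannot be told apart, and the part of these cell types in the results below was not tested.

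The promoters of Pck1 and Pdp2 are shown because, of the windows upstream of these genes, they held the letters TGACG, the core of the cAMP response element. The 250 bases before the RefSeq start (GRCm38.p6) were searched on both strands, and capitals mark TGACG or its reverse complement CGTCA. Pck1 lies on the + strand of chromosome 2, window chr2:173152823-173153072, and Pdp2 on the + strand of chromosome 8, window chr8:104591222-104591471.
Pck1: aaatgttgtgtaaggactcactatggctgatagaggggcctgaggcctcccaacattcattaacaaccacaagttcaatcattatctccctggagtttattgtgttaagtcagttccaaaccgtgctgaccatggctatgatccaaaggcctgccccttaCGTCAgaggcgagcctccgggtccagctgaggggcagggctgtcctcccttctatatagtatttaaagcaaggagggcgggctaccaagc
Pdp2: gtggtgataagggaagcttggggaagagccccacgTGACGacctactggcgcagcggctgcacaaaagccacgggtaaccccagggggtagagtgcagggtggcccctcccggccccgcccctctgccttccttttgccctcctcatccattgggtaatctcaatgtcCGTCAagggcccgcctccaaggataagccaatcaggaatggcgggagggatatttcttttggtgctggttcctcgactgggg
The match in Pck1 begins 90 bases before the start, and those in Pdp2 begin 215 and 82 bases before it. The same letters occur in 17.7% of the 32817 promoter windows of this length. The letters AGGTCA (nuclear receptor half-site, 14.03% of windows) occurred in 1 of the windows of Mpc1, and GTAAACA (forkhead, 3.16%) and AAGGTCA (4.08%, which contains AGGTCA) in none of the windows of the members. Windows were found for 9 of the members, and Pdp1 had none. A match of letters is not evidence that a factor binds there.

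Each duration was compared with the same 5 room temperature mice by edgeR's quasi-likelihood test, and a gene was called when its Benjamini-Hochberg adjusted p over all genes tested was below 0.05. Of the members, 9 could be tested against the controls, since Pdk3 had too few reads. After 6 hours, 2 members were higher, against 21.5% of all genes tested, and 2 were lower, against 21.0% of all genes. After 1 day, 2 members were higher (18.9% of all genes) and 3 lower (17.8%). After 2 days, 4 were higher (16.4% of all genes) and 1 lower (14.7%). The 3-day mice had 3 higher (18.3%) and 1 lower (15.5%), the 4-day mice 5 higher (19.4%) and 1 lower (18.6%), and the 5-day mice 4 higher (20.2%) and 1 lower (18.6%). With scaling by library size only, which moved the median of all genes against controls to between -0.25 and -0.15, the members higher and lower were 2 and 3, 2 and 3, 3 and 1, 3 and 2, 4 and 2, and 4 and 2 in the same order. Under that scaling, all genes split into 1342 higher and 3399 lower of 10593 after 6 hours and 1194 higher and 3347 lower of 10733 after 5 days. With 9 members, a single call is a large part of any such share, and no difference from all genes was tested. The median log2 fold change of the 9 tested members was 0.14 after 6 hours and 0.34 after 4 days, while the median over all genes tested was -0.03 and -0.02. The calls did not fall on the same members at each duration, and the kinases, the phosphatase Pdp2, the carrier, Pcx and Pck1 followed different courses, as the plots of every mouse show.

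**Figure D1:**
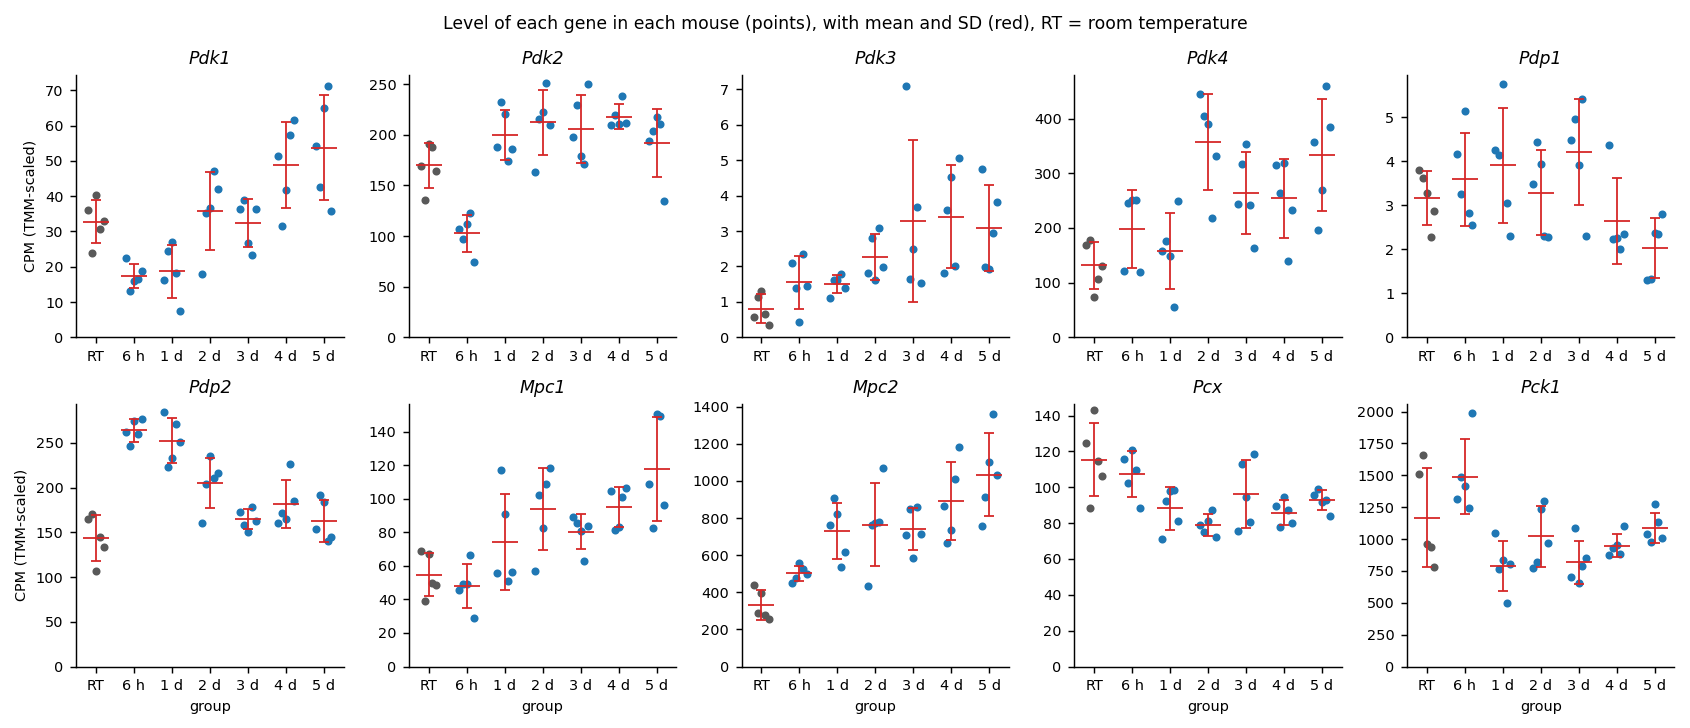
Level (TMM-scaled CPM) of each of the 10 genes in each of 35 mice, with 1 point per mouse, grey for room temperature (RT), blue for cold, and red bars for the mean and SD of 5 mice. Pdk1 and Pdk2 dip after 6 hours, Pdp2 peaks there, Mpc2 climbs from 332 to 1034 CPM between controls and 5 days, and Pdk4 is spread widely between mice at every duration.

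Among the kinases, Pdk4 and Pdk2 supplied most transcripts. Over the 35 mice the mean level was 242 CPM for Pdk4, 186 CPM for Pdk2, 34.2 CPM for Pdk1 and 2.27 CPM for Pdk3. PDK2 is the widely expressed isoform, PDK1 is known as a target of hypoxia signalling, and PDK4 is the isoform induced by fasting and fatty acids. After 6 hours Pdk1 and Pdk2 were both lower, and Pdk4 did not pass the test.

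Pdk2 (chr11:95026258-95041354, - strand) was low at 6 hours alone. The control mice had 169, 136, 191, 188 and 164 CPM, and the mice after 6 hours had 107, 96.9, 112, 123 and 74.9 CPM. All 5 cold mice were below every control (log2 fold change -0.76, SE 0.13, adjusted p = 0.000112 in edgeR's quasi-likelihood test). After 1 day the level was back at 188, 232, 220, 175 and 186 CPM, and every mouse was above every 6-hour mouse (log2 fold change 0.97 for 1 day against 6 hours, SE 0.13, adjusted p = 4.79e-05, edgeR). From then on group means lay between 192 and 218 CPM. Only the 4-day mice were called higher than controls, with 209, 220, 211, 239 and 211 CPM, all above the highest control (log2 fold change 0.34, SE 0.10, adjusted p = 0.0128, edgeR), and this call was lost with scaling by library size only (0.20, adjusted p = 0.142). The 2-day group passed the threshold without its replicate 1. In the order of group means, the step from 6 hours to room temperature was the only one between neighbours whose ranges did not overlap.

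Pdk1 (chr2:71873224-71903858, + strand) changed direction during the cold. The controls had 36.0, 23.8, 40.4, 30.6 and 33.1 CPM, and the 6-hour mice had 22.4, 13.2, 15.9, 16.5 and 18.9 CPM, with no overlap (log2 fold change -0.94, SE 0.15, adjusted p = 0.000106, edgeR). Pdk1 was still lower after 1 day (log2 fold change -0.82, SE 0.23, adjusted p = 0.0116, edgeR), when 1 mouse had 7.59 CPM, the lowest of all. Means returned to 35.8 ± 11.1 CPM after 2 days and 32.4 ± 6.86 CPM after 3 days (SD, n = 5), and neither group passed the test. After 5 days the mice had 54.2, 42.6, 65.0, 71.3 and 35.8 CPM, so 4 of 5 were above all controls (log2 fold change 0.69, SE 0.17, adjusted p = 0.00431, edgeR). The 4-day mice were also higher (log2 fold change 0.55, SE 0.17, adjusted p = 0.0161, edgeR), a call lost when all 7 groups were fitted together (adjusted p = 0.0583). A direct comparison of 5 days with 6 hours gave a log2 fold change of 1.63 (SE 0.18, adjusted p = 5.79e-07, edgeR), the largest change of any member in that comparison.

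Pdk4 (chr6:5483351-5496309, - strand) was higher from 2 days on, and it differed more between mice of a group than Pdk2 did. The controls had 169, 178, 74.7, 106 and 130 CPM. After 6 hours 3 mice had 246, 252 and 251 CPM, above every control, and the other mice had 121 and 120 CPM, within the control range. That group was not called (log2 fold change 0.56, SE 0.24, adjusted p = 0.0672, edgeR), and it passed the threshold when either of the low mice (replicates 1 and 5), or control replicate 1 or 2, was left out. Without the filter on low counts it passed as well, with a similar fold change and a smaller SE (0.57, SE 0.11, adjusted p = 9.13e-06, edgeR). After 1 day the values were 158, 176, 149, 55.9 and 249 CPM, and the group overlapped the controls on both sides.

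After 2 days Pdk4 stood at 445, 406, 389, 218 and 331 CPM, all above the controls (log2 fold change 1.42, SE 0.22, adjusted p = 0.00017, edgeR). The 3-day and 4-day groups each held 4 mice above all controls, with log2 fold changes of 0.99 and 0.93. After 5 days the mice had 358, 197, 269, 460 and 384 CPM, again all above the controls (log2 fold change 1.32, SE 0.23, adjusted p = 0.000168, edgeR). Each of these calls held when any single mouse was left out. The step from 1 day to 2 days was called by a narrow margin (log2 fold change 1.20, SE 0.27, adjusted p = 0.0422, edgeR). It was lost when replicate 1, 2 or 3 of the 1-day mice or replicate 1, 2, 3 or 5 of the 2-day mice was left out, with values of 0.98 to 1.42 over the 10 fits, and with scaling by library size only (adjusted p = 0.0538). Against 6 hours, 5 days was higher by 0.76 (SE 0.22, adjusted p = 0.00921, edgeR), which DESeq2 did not call (adjusted p = 0.0675).

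Pdk4 is abundant in skeletal muscle, so the muscle markers were set beside it. Their summed level was 470 ± 360 CPM in controls, 261 ± 230 CPM in 6-hour and 361 ± 411 CPM in 1-day mice (SD, n = 5). It was 240 ± 140 CPM in 2-day, 225 ± 209 CPM in 3-day, 363 ± 270 CPM in 4-day and 199 ± 43.1 CPM in 5-day mice. The part of muscle RNA in the Pdk4 values was not tested.

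Pdk3 (chrX:93764607-93832201, - strand), which encodes the least abundant isoform here, was near the limit of detection. It had 2 to 6 reads per mouse in controls (0.807 ± 0.402 CPM, SD, n = 5) and 6 to 30 reads after 3 days (3.29 ± 2.28 CPM). Means after 4 and 5 days were 3.41 ± 1.46 and 3.09 ± 1.21 CPM. Every mouse from 2 days on was above the highest control. Because the gene did not pass the filter on low counts, its log2 CPM was set against controls by exact permutation (two-sided), a test chosen after the data were seen. At 2, 3, 4 and 5 days p was 0.00794 each, the smallest that 5 against 5 mice allow (0.0119 adjusted over the 6 durations), after 1 day it was 0.0238 (0.0286 adjusted) with 4 mice above all controls, and after 6 hours it was 0.119 (exact permutation test). With so few reads, the sizes of these differences are uncertain.

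The mix of kinase transcripts was described by the share of Pdk4. It made up 38.8% ± 11.0 of Pdk1 to Pdk4 counts in controls (SD, n = 5), 60.6% ± 8.54 after 6 hours and 40.0% ± 12.1 after 1 day. The share was 58.2% ± 10.5 in 2-day mice and 51.7% ± 9.83 in 3-day mice, and 47.7% ± 9.54 and 56.4% ± 9.98 in the last pair of groups. The high share after 6 hours stood beside lower Pdk2 and Pdk1, and that after 2 days beside higher Pdk4. The ranges overlapped the controls (24.3% to 52.6%) at every duration, and no test was made of this share. The summed kinase level was 335 ± 24.9 CPM in controls and 320 ± 80.2 CPM after 6 hours, against 608 ± 57.5 CPM after 2 days and 582 ± 109 CPM after 5 days.

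**Figure D2:**
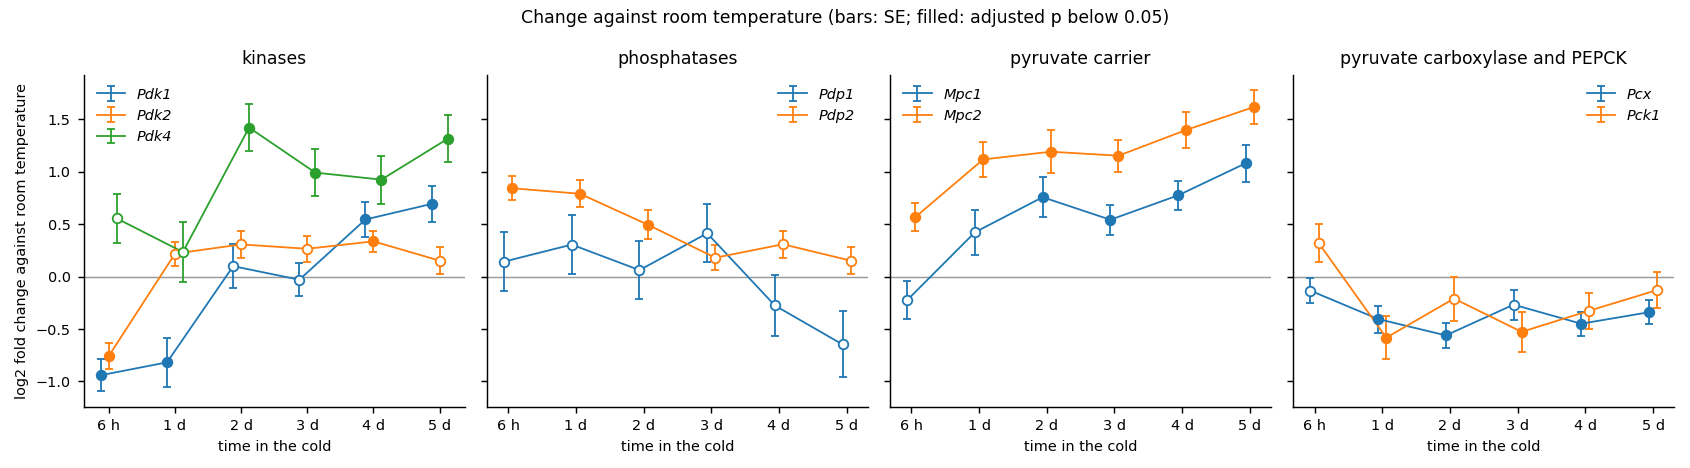
Log2 fold change against room temperature (y axis) over time in the cold (x axis) for the 9 tested genes, with SE bars and filled points where the edgeR adjusted p was below 0.05. Pdk1 and Pdk2 start below 0 and Pdk4 rises to 1.42 at 2 days, Pdp2 falls back from 0.84, and both carrier genes climb.

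Of the phosphatases, Pdp2 carried nearly all reads. PDP2 is the isoform known for its response to insulin in adipose tissue and liver, and PDP1 is the calcium-sensitive isoform of muscle. Pdp2 (chr8:104591451-104599026, + strand) was highest after 6 hours, with 262, 246, 275, 259.5 and 277 CPM against 165, 170, 107, 144 and 133 CPM in controls. The groups did not overlap (log2 fold change 0.84, SE 0.12, adjusted p = 1.48e-05, edgeR), and the spread within the 6-hour group was small (SD 12.4 CPM). After 1 day all mice were again above every control, at 285, 224, 233, 271 and 251 CPM (log2 fold change 0.79, SE 0.13, adjusted p = 0.00015, edgeR). The difference narrowed to 0.50 after 2 days (SE 0.14, adjusted p = 0.0127, edgeR), a call lost with scaling by library size only (0.26, adjusted p = 0.128), and was not called later, with values of 0.18, 0.31 and 0.15 after 3, 4 and 5 days. The 4-day difference passed the threshold without control replicate 1 or 2, with all 7 groups in 1 fit (adjusted p = 0.0353, edgeR) and without the filter on low counts (0.35, adjusted p = 0.0190, edgeR). Directly compared, 5 days was lower than 6 hours by 0.69 (log2 fold change -0.69, SE 0.11, adjusted p = 3.1e-05, edgeR), and all 5 mice were below every 6-hour mouse.

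The endothelial marker sum followed a similar outline, with its highest values after 6 hours and 1 day and 290 ± 58.8 CPM (SD, n = 5) after 5 days. The brown adipocyte marker sum was also highest after 6 hours and 1 day, at 19774.5 ± 2477 and 19543 ± 2174 CPM, against 14605.5 ± 1525 CPM in controls. After 5 days it was 19128 ± 1772 CPM. The sum does not stand for most of its 8 markers. Of them, 1 was called higher and 1 lower after 6 hours, 1 and 3 after 1 day, and 2 and 2 after 5 days. The part of either cell type in the Pdp2 values was not tested. Pdp1 (chr4:11958184-11966452, - strand) had 6 to 32 reads per mouse and means of 2.03 to 4.22 CPM. It was not called in any comparison, and its log2 fold change ran from 0.41 after 3 days (SE 0.27) to -0.65 after 5 days (SE 0.31, adjusted p = 0.113, edgeR). With scaling by library size only, the 5-day value passed the threshold (-0.88, adjusted p = 0.0330, edgeR).

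Kinase transcripts outnumbered phosphatase transcripts in controls by 2.32 ± 0.314 to 1 (SD, n = 5, lowest mouse 1.95, highest 2.80). After 6 hours the ratio was 1.20 ± 0.322 (0.771 to 1.50) and after 1 day 1.50 ± 0.407 (0.913 to 1.91), and no mouse of either group reached the lowest control. It then lay above the control mean, at 2.96 ± 0.550 in 2-day, 3.02 ± 0.564 in 3-day, 2.91 ± 0.646 in 4-day and 3.64 ± 1.10 in 5-day mice, with ranges that overlapped the controls. The ratio is a description of transcripts over chosen genes. It was not tested and does not give the phosphorylation of the enzyme.

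**Figure D3:**
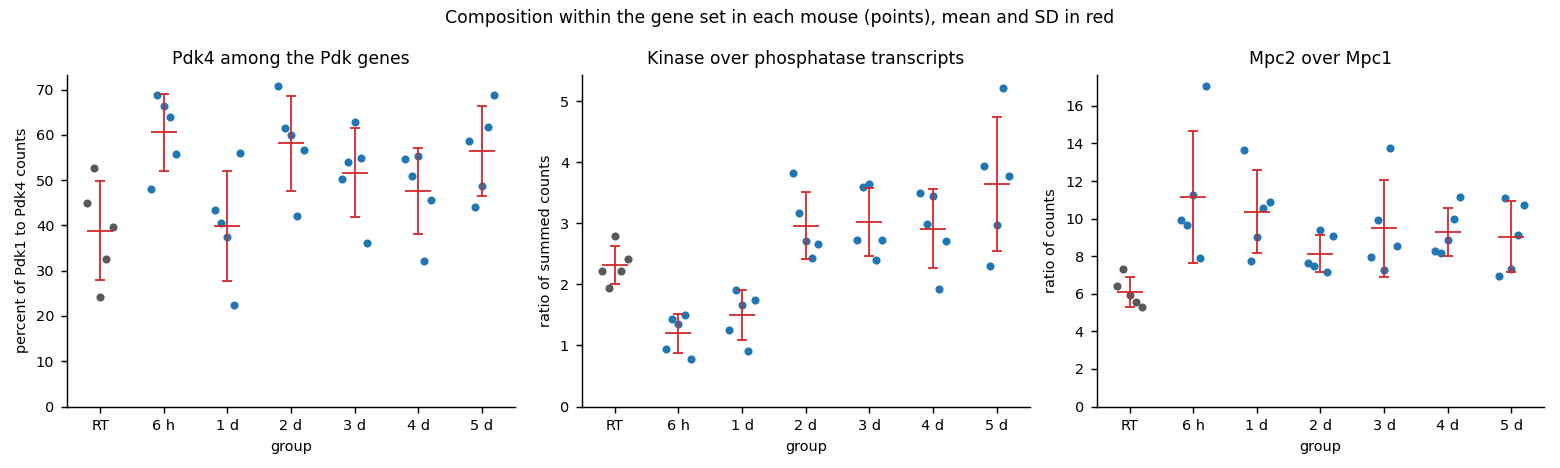
For each mouse (points, with mean and SD in red), Pdk4 as a percent of Pdk1 to Pdk4 counts, the ratio of summed Pdk to summed Pdp counts, and the ratio of Mpc2 to Mpc1 counts, by group on the x axis. The kinase to phosphatase ratio is below the lowest control (1.95) in all mice after 6 hours and 1 day, and Mpc2 over Mpc1 is above the control mean of 6.09 in all cold mice.

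Both subunits of the mitochondrial pyruvate carrier rose in the cold, Mpc2 within 6 hours and Mpc1 from 2 days on. MPC1 and MPC2 form a heterodimer, and each is unstable without the other. Mpc2 (chr1:165460637-165481214, + strand) had 442, 287, 397, 278 and 256 CPM in controls and 451, 477, 557, 526 and 498 CPM after 6 hours. All cold mice were above the controls, the lowest by little (log2 fold change 0.57, SE 0.13, adjusted p = 0.00231, edgeR). It was higher again after 1 day than after 6 hours (log2 fold change 0.54, SE 0.13, adjusted p = 0.00739, edgeR). After 5 days the mice had 759, 914, 1103, 1360 and 1033 CPM (log2 fold change against controls 1.62, SE 0.17, adjusted p = 7.2e-07, edgeR). In between, log2 fold changes against controls were 1.12, 1.19, 1.15 and 1.40 after 1, 2, 3 and 4 days. All 6 durations were called, and 1 mouse, 2-day replicate 1 with 435 CPM, lay within the control range.

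Mpc1 (chr17:8282904-8297661, + strand) was not called after 6 hours (log2 fold change -0.22, SE 0.18) or 1 day (0.42, SE 0.21, adjusted p = 0.132, edgeR). The 1-day value passed without the filter on low counts, with a smaller SE (0.44, SE 0.13, adjusted p = 0.00702, edgeR). The controls had 69.0, 39.3, 67.0, 50.05 and 48.5 CPM. From 2 days on it was called at each duration, with log2 fold changes of 0.76, 0.54, 0.78 and 1.08. After 5 days the values were 109, 82.3, 151, 149 and 96.5 CPM, all above the controls (SE 0.18, adjusted p = 9.95e-05, edgeR). Compared directly with 6 hours, 5 days was higher by 1.31 for Mpc1 (adjusted p = 1.16e-05, edgeR) and 1.05 for Mpc2 (adjusted p = 2.25e-06, edgeR). Mpc2 counts exceeded Mpc1 counts 6.09 ± 0.799 to 1 in controls and 11.2 ± 3.51 to 1 after 6 hours (SD, n = 5). Exons of Mpc1 share 586 bases with a gene on the opposite strand, which had at most 6 counts in a library.

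Against controls, Pcx and Pck1 changed less than the other members called, and their called changes were decreases. Their largest log2 fold changes were -0.56 after 2 days for Pcx and -0.58 after 1 day for Pck1. Between cold groups Pck1 moved more (-0.91 from 6 hours to 1 day). Pyruvate carboxylase, which refills the citric acid cycle with oxaloacetate, was lower at 4 of 6 durations. Pcx (chr19:4510472-4621752, + strand) had 125, 88.6, 143, 115 and 106 CPM in controls and 79.1, 74.9, 81.0, 87.5 and 72.2 CPM after 2 days, where all mice were just below the lowest control (log2 fold change -0.56, SE 0.12, adjusted p = 0.00228, edgeR). It was also called lower after 1 day (-0.40, adjusted p = 0.0215, edgeR), 4 days (-0.45, adjusted p = 0.0057, edgeR) and 5 days (-0.34, adjusted p = 0.0244, edgeR). The call after 1 day was lost without control replicate 3 or without 1-day replicate 1 or 5, and the values over the 10 fits were -0.48 to -0.32. The call after 5 days was lost without control replicate 1 or 3 or without 5-day replicate 5, with values of -0.42 to -0.26, and also without the filter on low counts (-0.31, adjusted p = 0.0589). After 6 hours (-0.13) and 3 days (-0.27, SE 0.14) Pcx was not called, but both passed the threshold with scaling by library size only (-0.32 and -0.42, adjusted p = 0.0330 and 0.0168, edgeR).

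Pck1, the cytosolic PEPCK and the key enzyme of glyceroneogenesis, was the most abundant member in all groups, with a mean of 1047 CPM over the mice. Pck1 (chr2:173153048-173159273, + strand) was spread widely in controls, at 1511, 1660.5, 959, 935 and 779 CPM. After 6 hours the mice had 1314, 1487, 1418, 1245 and 1987 CPM, and 1 of them was above every control (log2 fold change 0.32, SE 0.18, adjusted p = 0.165, edgeR). Without control replicate 2 that difference passed the threshold, with values of 0.20 to 0.48 over the 10 fits. It also passed without the filter on low counts, with a smaller SE (0.33, SE 0.11, adjusted p = 0.0165, edgeR).

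In the 1-day mice Pck1 was at 1051, 765, 836, 502 and 801 CPM, below every 6-hour mouse (log2 fold change for 1 day against 6 hours -0.91, SE 0.16, adjusted p = 0.000887, edgeR). Of the members, only Pck1 was called lower in that comparison, in which Pdk2 and Mpc2 were called higher, so that 3 of 9 tested members were called against 16.9% of all genes. Against controls, Pck1 was called lower after 1 day (-0.58, SE 0.21, adjusted p = 0.0367, edgeR) and 3 days (-0.53, SE 0.19, adjusted p = 0.0436, edgeR). Both calls overlapped the controls, with 2 mice of each group below them all. The 1-day call was lost without control replicate 1 or 2 or 1-day replicate 2, 3, 4 or 5 (values -0.70 to -0.42), and the 3-day call without control replicate 1 or 2 or 3-day replicate 1, 3, 4 or 5 (values -0.64 to -0.37). After 5 days Pck1 stood at 1088 ± 121 CPM (SD, n = 5), lower than after 6 hours (-0.45, SE 0.13, adjusted p = 0.00864, edgeR) and not called against controls (-0.13, SE 0.17). Its log2 fold change after 4 days was -0.32, not called, and it passed the threshold without control replicate 5 and with scaling by library size only (-0.46, adjusted p = 0.0421, edgeR).

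Few members were called in the steps between neighbouring durations from 1 day on. A step that was not called is not evidence of no change, and 5 days was not compared directly with 3 days. Between 1 and 2 days, Pdk4 was the single member called, against 1.27% of all genes. Between 2 and 3 days no member was called by edgeR or DESeq2 (0.142% of all genes in edgeR), and 3 members had an unadjusted p below 0.05. From 3 to 4 days and from 4 to 5 days, 0 members and 0% of all genes were called by edgeR, DESeq2 called no member, and 2 and 0 members had an unadjusted p below 0.05. Pdk1 was among the former, with a log2 fold change of 0.58 from 3 to 4 days (SE 0.18, adjusted p = 0.517, edgeR). Between 6 hours and 5 days, in contrast, 7 of 9 tested members were called against 35.8% of all genes, with Pdk1, Pdk2, Pdk4, Mpc1 and Mpc2 higher and Pdp2 and Pck1 lower.

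Some members also varied together between mice of the same duration. After centring each group on its mean, Pearson's r of log2 CPM over the 35 libraries was 0.71 for Pdk2 and Mpc1, 0.66 for Mpc1 and Mpc2 and 0.66 for Pdk1 and Mpc1, and it was -0.39 for Pdk1 and Pdk4. Without centring, r was 0.74, 0.80, 0.72 and 0.21 (Spearman's rho 0.74, 0.82, 0.77 and 0.24). Other pairs had a centred r near 0 or below it, such as 0.02 for Pdk4 and Mpc2, 0.03 for Pdk2 and Pdp2 and -0.31 for Pdp2 and Pcx. These points share library preparation and scaling, and the values are descriptions. One library of the 2-day group, replicate 1, stood at an end of its group for most members. It had the lowest Pdk1 (17.9 CPM), Pdk2 (163 CPM), Pdp2 (161 CPM), Mpc1 (56.7 CPM), Mpc2 (435 CPM) and Pck1 (771 CPM) of its group, and the highest Pdk4 (445 CPM). In this library the mitochondrial genome took 34.6% of counts and Gm42418 took 15.8%, against 38.0% to 43.4% and 11.7% to 14.4% in the other mice of the group.

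Genes whose log2 CPM was most like a member's over the 35 libraries were looked up among 6170 others with a mean of at least 50 counts. For Mpc2 they were Dnaja3 (r = 0.96, rho = 0.94), Atp5mpl (r = 0.95, rho = 0.95) and Chchd10 (r = 0.94, rho = 0.93). For Mpc1 they were Nsdhl (r = 0.89, rho = 0.85), Acly (r = 0.88, rho = 0.90) and Dhrs7 (r = 0.87, rho = 0.89), and for Pdk1 Zadh2 (r = 0.89, rho = 0.91), Acat2 (r = 0.88, rho = 0.91) and Aacs (r = 0.88, rho = 0.91). Pdk2 was most like Anp32a, Crat and Hmg20b (r = 0.89, 0.89 and 0.88), and Pdp2 most like Slc27a2, Dgat1 and Slc12a2 (r = 0.89, 0.88 and 0.87). Likeness was weaker for Pcx, with Aldh2, Prnp and Gpx1 (r = 0.81, 0.78 and 0.77), for Pdk4, with Pfn1, Sdhd and Tab2 (r = 0.78, 0.77 and 0.76), and for Pck1, with Eif4a2, Crls1 and Ddx50 (r = 0.73, 0.72 and 0.72). After centring each group on its mean, r with the same genes was 0.82 to 0.90 for Mpc2, 0.39 to 0.57 for Pdp2 and 0.44 to 0.55 for Pck1. For the other members it was 0.55 to 0.80. Pdk3 and Pdp1 had too few reads for this search.

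The enzymes around these genes were examined as 4 lists. The pyruvate dehydrogenase complex itself rose in part. Of its 6 genes, 2 were called higher and 1 lower at 6 hours (21.5% and 21.0% of all genes). At 5 days 5 were called higher (20.2% of all genes), when the list's median log2 fold change was 0.54 and that of all genes tested was -0.02. No difference of a list from all genes was tested. Dld, the shared dihydrolipoamide dehydrogenase subunit, and Pdhx, the binding protein that anchors it, were called higher at all 6 durations, with log2 fold changes of 0.25 and 0.37 after 6 hours and 0.67 and 0.55 after 5 days. Pdhb, the beta subunit of the first enzyme, was at 0.03 after 6 hours and rose by 1.00 after 5 days (SE 0.15, adjusted p = 3.73e-05, edgeR). Pdha1, the alpha subunit that carries the sites phosphorylated by PDK, was lower after 6 hours (-0.33, SE 0.10, adjusted p = 0.013, edgeR) and higher after 5 days (0.51, SE 0.12, adjusted p = 0.00289, edgeR). Dlat, the acetyltransferase core, was called higher after 1, 4 and 5 days.

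Of 13 pyruvate and malate partners, 4 were called higher at 6 hours (21.5% of all genes) and 1 lower (21.0%). At 5 days these numbers were 10 (20.2% of all genes) and 1 (18.6%). Got1, the cytosolic aspartate aminotransferase of the malate-aspartate shuttle, rose from 11.8 CPM in controls to 103 CPM after 6 hours (log2 fold change 3.11, SE 0.17, adjusted p = 4.89e-10, edgeR) and remained higher by 2.81 to 3.21 at the other durations. Slc16a1, the monocarboxylate transporter MCT1, was higher by 1.01 after 6 hours and 1.24 after 5 days. Ldha, lactate dehydrogenase A, and Me1, the cytosolic malic enzyme that supplies NADPH, were near 0 after 6 hours (-0.05 and 0.01) and higher by 1.27 and 1.86 after 5 days. Pck2, the mitochondrial PEPCK, was called lower after 1 and 2 days (-0.71 and -0.76).

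Genes of glycerol 3-phosphate and glycerol were called higher in 5 of 8 cases after 6 hours (21.5% of all genes). After 5 days 5 were higher (20.2% of all genes) and 2 lower (18.6%). Gk, glycerol kinase, which makes glycerol 3-phosphate from glycerol without PEPCK, rose to 999 CPM at 6 hours from 159 CPM in controls (log2 fold change 2.62, SE 0.24, adjusted p = 1.33e-07, edgeR) and was still higher by 1.63 after 5 days. Gpd1, which reduces dihydroxyacetone phosphate to glycerol 3-phosphate, was higher by 0.46 after 6 hours and 1.35 after 5 days. Gpam, the mitochondrial glycerol 3-phosphate acyltransferase, was higher by 1.11 after 6 hours and 1.04 after 5 days, and Gpat3 was called only after 6 hours (0.95). At the same durations Pck1 was at 0.32 and -0.13, neither called.

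Of 16 regulators known to act on Pdk4 or Pck1, 4 were called higher and 4 lower at 6 hours, and 3 and 4 at 5 days. With 15 tested at each, these shares were near those of all genes (21.5% higher and 21.0% lower at 6 hours, 20.2% and 18.6% at 5 days). Ppargc1a, a coactivator of nuclear receptors, was highest after 6 hours (log2 fold change 3.62, SE 0.22, adjusted p = 1.19e-09, edgeR) and at 1.13 to 2.77 later. Cebpb was higher and Cebpa lower at all 6 durations, with values of 1.35 and -1.26 after 6 hours and 0.72 and -0.78 after 5 days. Both encode C/EBP factors that bind the Pck1 promoter. Esrrb passed the filter on counts at 4 days alone, where it was higher by 2.04 from 0.518 CPM in controls.

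**Figure D4:**
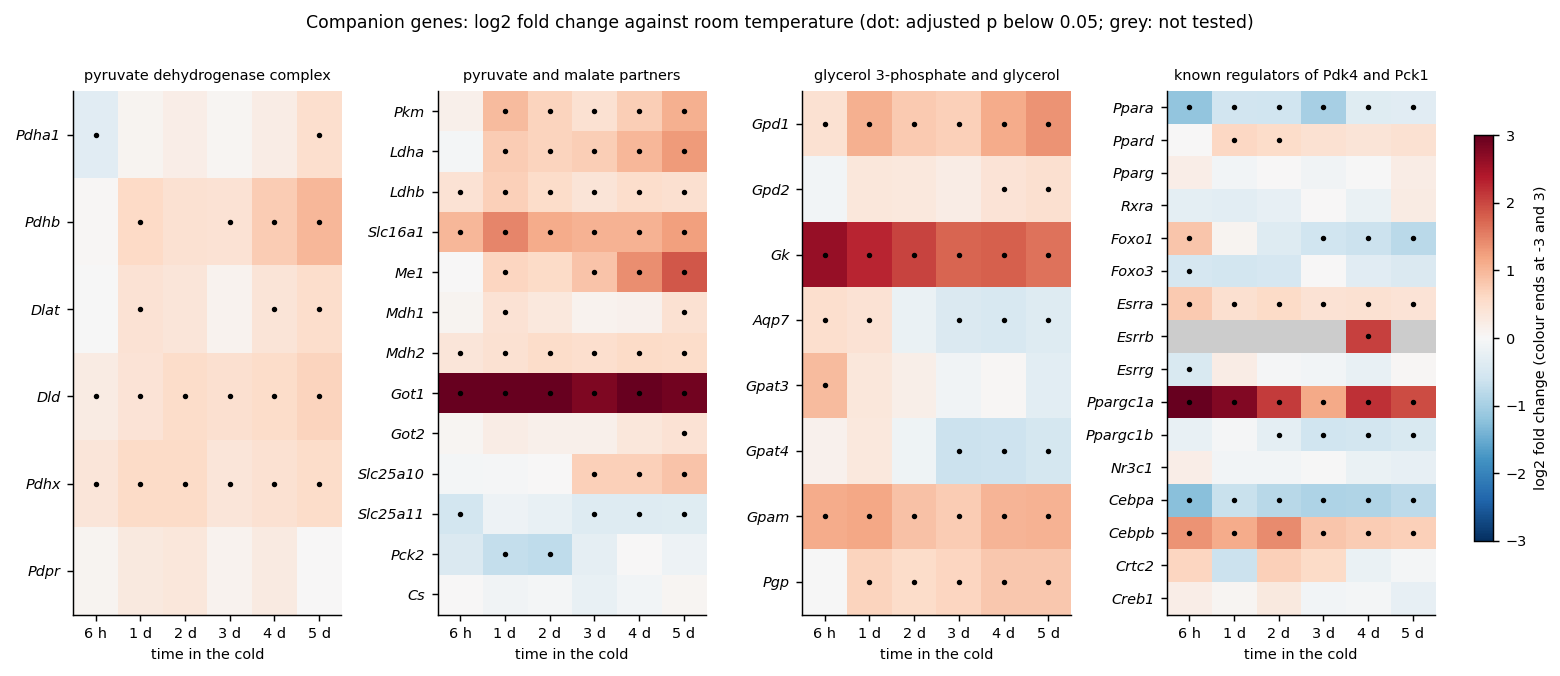
Log2 fold change against room temperature (colour, red for higher and blue for lower) of the genes in the 4 lists (rows) over time in the cold (columns), with a dot where the edgeR adjusted p was below 0.05 and grey where a gene was not tested. Got1, Gk and Ppargc1a are dark red at 6 hours, and Cebpa is blue throughout.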

How the data were processed

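RNA from 1 iBAT pad per mouse was sequenced with the QuantSeq 3′ FWD kit on an Illumina NovaSeq. The authors aligned the reads with STAR 2.6.1d to GRCm38 and counted them per gene with HTSeq 0.11.2 and Ensembl annotation, and the deposited values are raw counts for 35 libraries. The strand setting of the counting is not given in the sources used here. Column names gave the duration and number of each mouse, and 267 identifiers had no symbol.

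Each pair of groups was fitted separately in edgeR 4.0.16 (R 4.3.3) with TMM factors, filterByExpr and the quasi-likelihood test, with Benjamini-Hochberg adjustment over all genes tested. Comparisons were each duration against room temperature, each duration against the one before, and 5 days against 6 hours. The 6 comparisons with room temperature use 1 set of controls, so they depend on one another. Standard errors were derived from the fold change and the F statistic. Levels are TMM-scaled CPM, with a prior count of 2 on the log2 scale. Alternatives were DESeq2 1.42.0, other scalings, no filter, 1 fit of all groups, replicate number as a block and fits with 1 mouse fewer. The fits were also run on simulated counts. Far fewer genes were changed there than were called against controls here, so that run does not show how the fits behave on these data.

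All members are named in the text. For each companion list the genes named are up to 4 with the largest change among those called, and Pdha1 and Pck2 were added after their values were seen. For likeness, the 3 genes with the highest Pearson's r were taken. The members and lists were chosen with earlier results of these data known. Sequences are from RefSeq. Python 3.11.15 was used for the summaries and plots.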

Additional observations from a re-analysis of the deposited data

Results flagged for a closer look

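Among 70 sets of 5 mice (10 genes in 7 groups), 2 had a mouse far from the others by Dixon's criterion, and chance alone flags about 1 in 20. Pdk2 was 134.5 CPM in 5-day replicate 5, the lowest of its group, and Pdp1 was 4.37 CPM in 4-day replicate 1, the highest of its group.

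The change against room temperature differed between durations for 7 members in a direct edgeR comparison of the cold groups. From 6 hours to 1 day (16.9% of all genes called), the log2 fold change was 0.97 for Pdk2, 0.54 for Mpc2 and -0.91 for Pck1. From 1 to 2 days (1.27% of all genes called) it was 1.20 for Pdk4. From 6 hours to 5 days (35.8% of all genes called) it was 1.63 for Pdk1, 0.91 for Pdk2, 0.76 for Pdk4, 1.31 for Mpc1, 1.05 for Mpc2, -0.69 for Pdp2 and -0.45 for Pck1. Against controls, Pdk1 was called lower after 6 hours and 1 day and higher after 4 and 5 days, and Pdk2 was called lower after 6 hours and higher after 4 days.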

How the results depend on the processing

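The fold changes counted here are those tested against controls and, between cold groups, only those called. A call gained between cold groups is therefore not counted. Of 65 member fold changes (40 of them called), 65 kept their direction and call with RLE size factors, 65 without mitochondrial-genome genes and Gm42418, and 65 with the replicate block. DESeq2 kept 64, 1 fit of all groups 63, no filter on low counts 60 and scaling by library size only 52. With library size only, 6 values that were not called changed sign, to -0.0443 and -0.15 for Pdp1 after 6 hours and 2 days, -0.00481 and -0.0870 for Pdk2 after 1 and 5 days, -0.15 for Pdk1 after 2 days and -0.0832 for Pdp2 after 5 days. No called value changed sign under any of these alternatives. When each mouse was left out in turn, 605 of 650 values kept direction and call, and values ranged from -0.0113 to 0.26 for Pdp1 after 6 hours, -0.0474 to 0.16 for Pdp1 after 2 days, -0.0214 to 0.28 for Pdk1 after 2 days, -0.13 to 0.0730 for Pdk1 after 3 days and -0.24 to 0.0354 for Pck1 after 5 days. Members called from 1 to 2 days numbered 1, and 2 with DESeq2, 2 without the filter, 2 with all groups in 1 fit and 0 with library size only, and leaving out single mice gave 0 to 1. Over all genes tested, the calls were 130 of 10274 in the main fit and 306 of 9074 with DESeq2. They were 518 of 26528 without the filter, 381 of 12077 with all groups in 1 fit and 110 of 10274 with library size only. After 1 day against controls the count was 3 to 5 over the leave-one-out fits, 3 without 1-day replicate 5. From 3 to 4 days the count was 1 without the filter, where 141 of 25217 genes were called. The causes were not tested. The replicate number paired no mice by the labels, and deviations of same-numbered mice had correlations of -0.28 to 0.22. With the replicate block, the members called from 1 to 2 days remained 1 and those against controls after 4 days 6. Depth limits Pdk3 and Pdp1, which had at most 30 and 32 reads in a library.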
